A study of Mus musculus with 3 samples.

Results

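The genes of the Id proteins and of the E proteins were examined in a map of Sp9 binding in the olfactory bulb of newborn mice. Members were all peaks of the deposited list whose gene name was exactly Id1, Id2, Id3, Id4, Tcf3, Tcf4 or Tcf12. This gave 15 peaks of 19979, with 8 named for the 4 Id genes and 7 for the 3 E protein genes. Sp9 is a zinc finger transcription factor of the Sp family, and the study asked how it and its relative Sp8 act in olfactory bulb interneuron development. Sp9 was immunoprecipitated with a homemade antibody in 2 libraries, set against 1 input library made without antibody. All libraries came from CD1 olfactory bulb dissected on postnatal days 0 to 2, fixed with 1% formaldehyde for 10 min and sheared to fragments of 200 to 1000 bp, and no genetic change is given for these mice. How many animals stand behind a library is not stated. The tissue could not be checked against marker genes, because a peak list holds no expression.

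The Id and E proteins belong to the helix-loop-helix family. E proteins are broadly expressed basic helix-loop-helix factors that pair with tissue-restricted partners, such as the proneural factors, and bind the short DNA motif called the E-box. Id proteins have the helix-loop-helix through which they pair with E proteins but lack the basic stretch that contacts DNA, so an E protein held by an Id protein cannot bind. In the developing forebrain, Id proteins are known for keeping progenitors undifferentiated, and Id genes are classical targets of BMP signalling.

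Sp family factors are known to bind GC boxes, so the promoters of the members were searched for the letters GGGCGG on both strands. RefSeq windows of assembly GRCm38.p6 were found for 5 of the 7 members, namely Id2, Id3, Id4, Tcf3 and Tcf12. The search covered the 250 bases before each start. The peak list is in another build (mm9) and carries no distances, so whether a peak lies in the window shown for its gene is not known. The window of each gene is shown to let the number and place of the GC boxes be compared, with GC boxes on either strand in capitals, 5′ to 3′ along the gene. For Tcf12, the window with the most GC boxes of its 3 is shown.
Id2: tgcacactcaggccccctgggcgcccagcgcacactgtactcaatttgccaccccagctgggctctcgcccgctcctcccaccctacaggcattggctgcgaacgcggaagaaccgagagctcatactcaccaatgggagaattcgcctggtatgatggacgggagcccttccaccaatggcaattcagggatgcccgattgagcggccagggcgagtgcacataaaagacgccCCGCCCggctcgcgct
Id3: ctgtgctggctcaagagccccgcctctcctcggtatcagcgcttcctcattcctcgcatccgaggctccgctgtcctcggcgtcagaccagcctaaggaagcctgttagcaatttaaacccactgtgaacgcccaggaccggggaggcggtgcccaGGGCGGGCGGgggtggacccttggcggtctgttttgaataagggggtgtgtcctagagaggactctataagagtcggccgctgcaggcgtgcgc
Id4: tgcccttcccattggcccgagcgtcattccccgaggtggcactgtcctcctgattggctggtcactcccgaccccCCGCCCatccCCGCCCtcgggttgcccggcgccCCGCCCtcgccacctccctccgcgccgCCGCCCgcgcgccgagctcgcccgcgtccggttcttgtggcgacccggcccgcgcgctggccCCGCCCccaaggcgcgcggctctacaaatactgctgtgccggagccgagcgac
Tcf3: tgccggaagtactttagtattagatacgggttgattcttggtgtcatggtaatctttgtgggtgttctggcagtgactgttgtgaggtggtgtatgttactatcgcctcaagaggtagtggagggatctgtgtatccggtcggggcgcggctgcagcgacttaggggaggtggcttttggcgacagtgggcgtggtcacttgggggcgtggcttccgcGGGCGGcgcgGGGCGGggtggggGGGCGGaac
Tcf12: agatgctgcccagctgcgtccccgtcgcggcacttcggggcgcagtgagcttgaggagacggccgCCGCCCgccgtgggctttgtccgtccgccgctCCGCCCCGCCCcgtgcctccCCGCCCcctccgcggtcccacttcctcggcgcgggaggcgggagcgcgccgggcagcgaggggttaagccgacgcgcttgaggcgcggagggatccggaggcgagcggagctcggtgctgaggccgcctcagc

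The Id4 window, on chromosome 13 (plus strand), held 5 GC boxes, all on the opposite strand, between 175 and 53 bases before the start. At least 5 were found in 2.68% of all coding windows and in 4.18% of the windows of genes with a linked peak. The GC content of the Id4 window was 75.6%, against a median of 55.6% over all coding windows, and these shares do not allow for GC content. The Tcf12 window shown, on chromosome 9 (minus strand), held 4, of which an adjoining pair shared 1 base, and at least 4 were found in 5.59% of all coding windows and 8.60% of those of linked genes. It was picked as the richest of 3 windows, whereas these shares are over windows that were not picked. The Tcf3 window, on chromosome 10 (minus strand), had 3 GC boxes, all within 32 bases of the start. Id3, on chromosome 4 (plus strand), had 2 overlapping ones from 94 bases before its start, and Id2, on chromosome 12 (minus strand), had 1 at 16 bases before its start. Of all 7 windows of these 5 genes, 6 held a GC box, against 42.6% of the 21263 windows of coding genes and 57.3% of those of linked genes. The window without one was a further start of Tcf12 with a GC content of 34.8%, against 76.8% in the Tcf12 window shown. E-boxes, searched as CANNTG, which reads the same on both strands, were in 4 of the 7 windows, against 62.8% of all coding windows. They were single in each of the 4, with 1 in Id2, 1 in Tcf3 and 1 in each GC-rich window of Tcf12, while Id3 and Id4 had 0. A match of letters describes the window and is not a measured binding site.

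Every Id and E protein gene had at least 1 linked peak, 7 of 7, where 55.4% of the 21900 protein-coding genes had one. The members were chosen with earlier results of these data known, so this contrast is no test of them. Linked here means only that the authors put that gene's name on the peak. At least 2 linked peaks were found for 6 of the 7 genes, against 15.5% of coding genes, and at least 3 for Tcf4 and Tcf12, against 5.62%. Of the 12136 coding genes with any linked peak, 3387 had at least 2 and 1231 at least 3. The 4 Id genes had exactly 2 peaks each. A peak scoring at least 210.06, the median over all peaks, was linked to 5 of the 7 genes, against 35.4% of all coding genes and 64.0% of those with any linked peak. A peak above the upper quartile of scores, 353.555, was linked to only Id4 and Tcf12, 2 of 7, against 19.2% of all coding genes and 34.6% of linked ones. All members were thus linked, with scores from 80.69 to 1027.08. Of the 15 peaks, 8 lay at or above the median of all peaks, 4 above the upper quartile and 4 under the lower quartile of 127.05. The peak score is the authors' own, 1 value per shared peak. Its formula is not stated, so it serves only to rank peaks within the list. With no value per library, no peak has an error between replicates, and no difference below was tested.

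**Figure D1:**
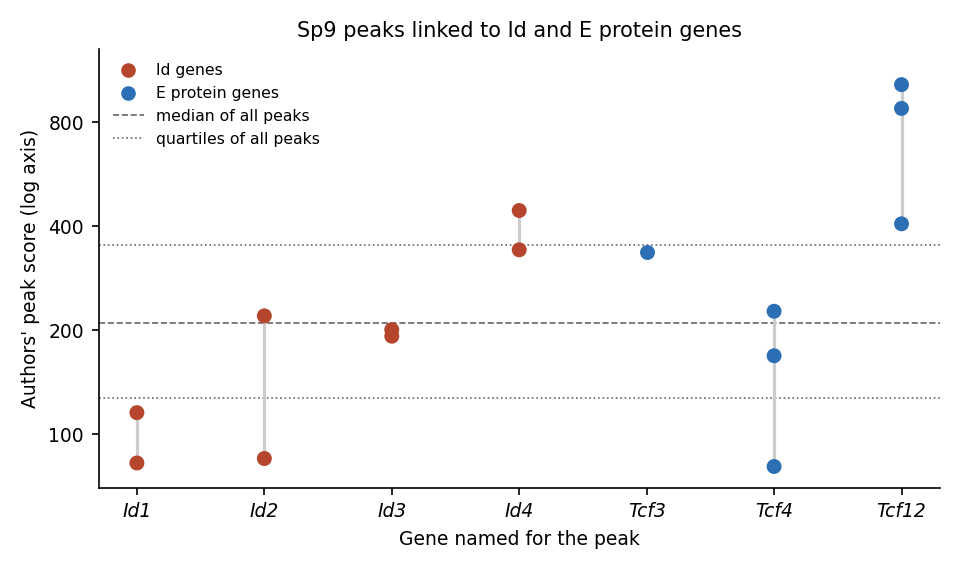
Authors' peak score (log axis) of all 15 peaks by the gene named for them, with Id genes in red and E protein genes in blue; grey lines join the peaks of 1 gene, and dashed and dotted lines mark the median and the quartiles of all 19979 peaks. The 3 Tcf12 peaks lie above the upper quartile, and the 2 Id1 peaks lie below the lower quartile.

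The Id genes were linked to peaks of mostly middle and low score, with Id4 as the exception. Id4, an Id gene of neural progenitors, had peaks of score 444.04 (chr13:48356259-48358041, mm9) and 341.73 (chr13:48323022-48323888), which lay above 84.0% and 73.6% of all peaks. Id2, which in mice is needed for dopaminergic interneurons of the bulb, had a peak of score 220.11 (chr12:25783068-25783943) and another of 85.1 (chr12:25780577-25781604). The higher Id2 peak stood just above the middle of the list, over 52.2% of peaks, and the lower one over 3.11%. Id3, which overlaps in function with Id1 during brain development, had peaks of 200.74 (chr4:135690678-135691619) and 192.2 (chr4:135703592-135704725), above 47.9% and 46.0% of all peaks. These 2 were the closest in score of any peaks that shared a member's name. Id1 had the lowest highest peak of any member, with scores of 115.53 (chr2:152549585-152550132) and 82.6 (chr2:152561956-152562603), above 19.7% and 1.39% of all peaks. Both Id4 peaks scored above all 6 peaks of the other Id genes.

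The E protein genes held the highest and the lowest peak of all members. Tcf12, which encodes the E protein HEB, had the 3 peaks with scores of 1027.08 (chr9:71958507-71960280), 876.55 (chr9:71818577-71820341) and 406.36 (chr9:71980464-71981458). The first of these ranked 204 of 19979, the next 384 and the last 3860. Set against the highest peak of each linked coding gene, Tcf12 stood above 98.7% of genes. Tcf3, which encodes the E2A proteins, had a single peak of score 336.34 (chr10:79895417-79896451), above 72.8% of all peaks. Tcf4, the E protein gene mutated in the human Pitt-Hopkins syndrome, had peaks of 226.99 (chr18:69751907-69753278), 168.73 (chr18:69505341-69506406) and 80.69 (chr18:69503439-69504247). These lay above 53.8%, 39.7% and 0.365% of all peaks, so the strongest Tcf4 peak was near the middle of the list and the weakest near its floor of 80.01.

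Set side by side, the 4 Id genes had 2 peaks per gene and the 3 E protein genes 2.33, against 0.819 over all coding genes. That mean takes in the many coding genes without a linked peak (12136 of 21900 had one), whereas every member had one. The median score was 196.47 over the 8 Id peaks and 336.34 over the 7 E protein peaks, against 210.06 over all peaks. Scores at or above the median of the list were found for 3 of 8 Id peaks and 5 of 7 E protein peaks. Scores above the upper quartile were found for 1 of 8 Id peaks and 3 of 7 E protein peaks, all 3 of them of Tcf12. The score ranges of the 2 families overlapped, from 82.6 to 444.04 for the Id peaks and from 80.69 to 1027.08 for the E protein peaks. Ordered by highest peak, the genes ran Tcf12, Id4, Tcf3, Tcf4, Id2, Id3 and Id1, so the families were interleaved. Without the 3 Tcf12 peaks, no E protein peak scored above either Id4 peak.

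Wider peaks in this list have higher scores, so each member peak was also ranked among peaks within 10% of its own width. Widths ran from 547 to 1782 bp for the Id peaks (median 908 bp) and from 808 to 1773 bp for the E protein peaks (median 1065 bp), against a median of 986 bp over all peaks. The 3 Tcf12 peaks stayed high, above 98.1%, 94.0% and 92.3% of peaks of like width. The Id4 peaks changed places. The narrower one, 866 bp wide, stood above 93.9% of peaks of its width, whereas the 1782 bp peak with the higher score stood above 37.9%. The highest Id1 peak, only 547 bp wide, stood above 58.0% of like peaks in place of 19.7% of all. The highest Tcf4 peak, 1371 bp wide, stood above 13.8% in place of 53.8%. Tcf3 stood above 81.2%, the higher Id2 peak above 71.7% and the higher Id3 peak above 56.9%. The lowest peaks of Id2 and Tcf4 stayed at the bottom, above 0.774% and 0.441% of peaks of like width.

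**Figure D2:**
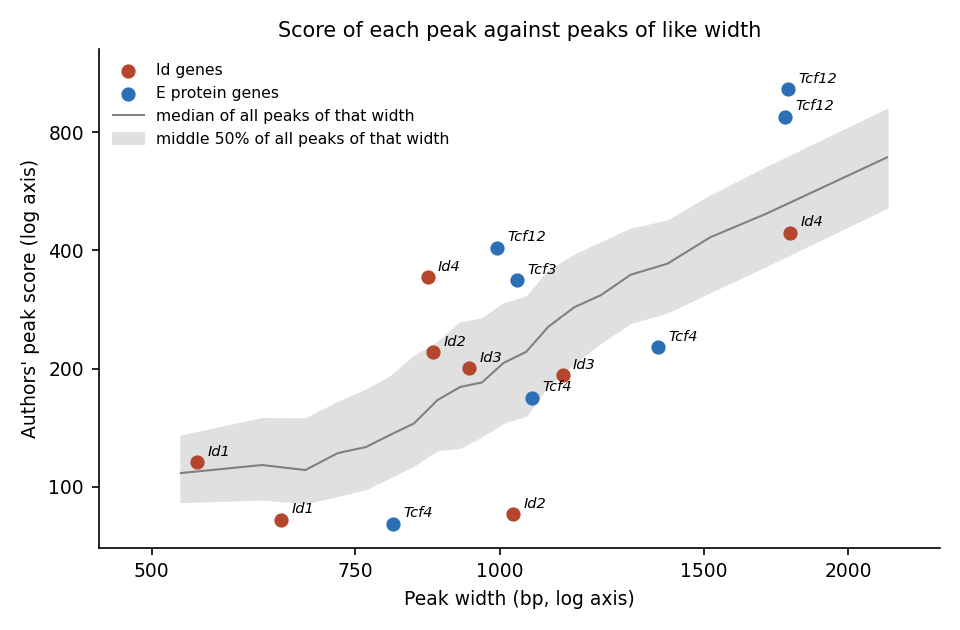
Authors' peak score against peak width (both axes log) for the 15 peaks, with Id genes in red and E protein genes in blue; the grey line and band are the median and the middle 50% of all peaks in 20 width classes of about equal size. The 3 Tcf12 peaks, the Tcf3 peak and the 866 bp Id4 peak lie above the band. The lower peaks of Id1 and Id2 and the 808 and 1371 bp Tcf4 peaks lie below it, and the 1133 bp Id3 peak is at its lower edge.

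The surroundings of the genes also differed. No peak of another name lay within 100 kb of any peak of Id2, Tcf4 or Tcf12, which are 3 of the 7 members. They hold 8 of the 15 member peaks, but peaks of 1 gene can share their surroundings and are not separate cases. Over the whole list, 35.3% of peaks had no such neighbour. The 2 Id2 peaks were 1.46 kb apart, and the nearest peak of another name was that of Kidins220 at 120.3 kb. At Tcf12, 20.2 kb separated the highest peak from the lowest and 138 kb separated it from the peak of score 876.55. The nearest peak on chromosome 9 with a higher score than 1027.08 lay 7787 kb away and carried the name Filip1. As the highest Tcf12 peak ranked 204 of 19979, few peaks in the whole list score higher. At Tcf4, the 2 lower peaks were 1.09 kb apart and the highest was 246 kb from them, and the nearest peak of another name was 419.8 kb off. The Tcf12 and Tcf4 peaks were thus spread over 163 and 249.8 kb with no other name between them. Whether any of these peaks falls in an intron, an exon or outside the gene cannot be read from the list.

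Tcf3 lay in a crowded stretch, with 18 peaks of other names within 100 kb, a number above that of 98.5% of all peaks. The nearest carried the names of Uqcr11, a subunit of respiratory complex III (19.2 kb, highest score 140.7), the methyl-CpG-binding family gene Mbd3 (32.6 kb, 641.5) and the homeobox gene Onecut3 (37.9 kb, 6 peaks, up to 445.67). Of these 18 peaks, 6 scored above the Tcf3 peak. Around Id1, 6 of the 7 other peaks within 100 kb scored above both Id1 peaks. The nearest names were Mcts2 (15.8 kb, 3 peaks, up to 259.46), H13 (53.7 kb, 146.07) and Rem1 (88.8 kb, 2 peaks, up to 241.03). The 2 Id1 peaks were 11.8 kb apart. Around Id3, whose peaks were 12.0 kb apart, 3 of 6 others scored higher. The nearest names there were the cell cycle factor gene E2f2 (23.5 kb, 225.52), the ribosomal protein gene Rpl11 (52.3 kb, 2 peaks, up to 240.24) and Asap3 (57.3 kb, 136.58). Id4 had a single neighbour, a peak of score 402.21 named for the long non-coding RNA gene A330048O09Rik at 34.3 kb, a score between those of the 2 Id4 peaks. The Id4 peaks were 32.4 kb apart, against a median gap of 20.5 kb over 2155 coding genes with 2 linked peaks (quartiles 4.64 and 63.2 kb). The gaps of Id1, Id3 and Id2 lay below that median, and the Id2 gap of 1.46 kb also lay below the lower quartile. How the naming would change with another rule for neighbouring genes was not tested.

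**Figure D3:**
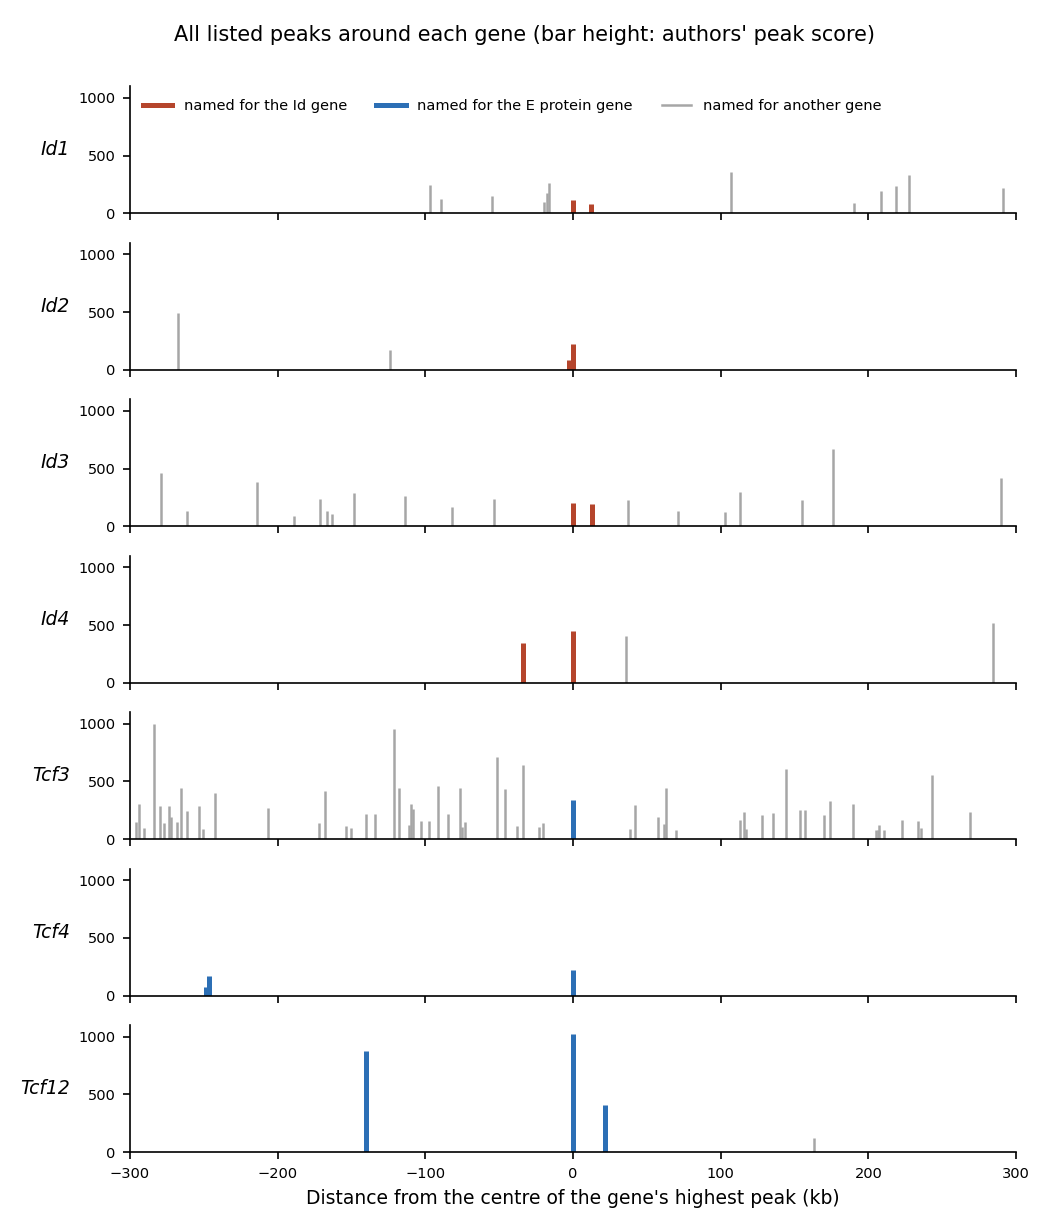
All listed peaks within 300 kb of the highest peak of each gene, drawn at their distance from its centre (kb) with bar height as the authors' peak score; coloured bars carry the gene's own name (Id genes red, E protein genes blue) and grey bars another name. Tcf3 has 18 peaks of other names within 100 kb, and Id2, Tcf4 and Tcf12 have 0.

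The partners and regulators of Id and E proteins were also widely linked. Of the tissue-restricted class II bHLH genes, whose proteins pair with E proteins, 32 of 38 had a linked peak (84.2%, against 55.4% of coding genes). An above-median one was found for 25 (65.8%, against 35.4%). These were 25 of the 32 linked class II genes, where the share over all linked coding genes was 64.0%. The highest belonged to Bhlhe22 (896.52), Ascl2 (893.54), Atoh8 (693.45) and Olig2 (668.88). All 9 Hes and Hey genes, which encode a bHLH family made up mostly of repressors and include Notch targets, had an above-median peak, against 35.4% of coding genes and 64.0% of linked ones, led by Hes6 (768.57), Hes5 (628.96), Hes1 (504.59) and Hes3 (459.45). Each of the 9 had at least 2 linked peaks, and a gene with more peaks has more occasions for an above-median one. Of 18 genes for cofactors of E and Id proteins, 15 had a linked peak (83.3%, against 55.4% of coding genes). The same 15 had an above-median one, where 35.4% of all coding genes and 64.0% of linked ones had one. Usp1, a deubiquitinase that stabilises Id proteins, scored 751.81, Lmo2, an adaptor in E protein complexes, 650.81, the corepressor gene Runx1t1 621.18 and the acetyltransferase gene Ep300 615.09.

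All 17 genes of the BMP and Smad branch that feeds Id genes had a linked peak, against 55.4% of coding genes. An above-median one was found for 12 (70.6%, against 35.4% of all coding genes and 64.0% of linked ones). The highest were on the inhibitory Smad genes Smad6 (1043.92) and Smad7 (697.62), on the ligand gene Bmp2 (832.85) and on Nog (814.98), which encodes the secreted BMP antagonist noggin. All 7 genes of cyclin-dependent kinase inhibitors, some of which E proteins are known to activate, had a linked peak. Of these, 5 had an above-median one (71.4%, against the same 35.4% and 64.0%). The above-median shares of the BMP and kinase inhibitor genes were thus near that of any linked gene. At the upper quartile this was not so: 12 of the 17 BMP genes and 4 of the 7 kinase inhibitor genes had a peak above it, against 34.6% of linked coding genes. The highest scores of the kinase inhibitor genes were 1376.16 for Cdkn1c, 815.12 for Cdkn2c, 423.77 for Cdkn1b and 394.23 for Cdkn1a. The median of the highest peak per linked gene was 210.4 over the Id genes and 336.34 over the E protein genes. It was 379.73 for class II partners, 391.4 for Hes and Hey genes, 402.43 for cofactors, 463.96 for BMP and Smad genes, and 394.23 for kinase inhibitors, against 273 over all linked coding genes. These are counts and medians of 1 peak list that do not allow for the number of peaks per gene, and no difference between the lists was tested.

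**Figure D4:**
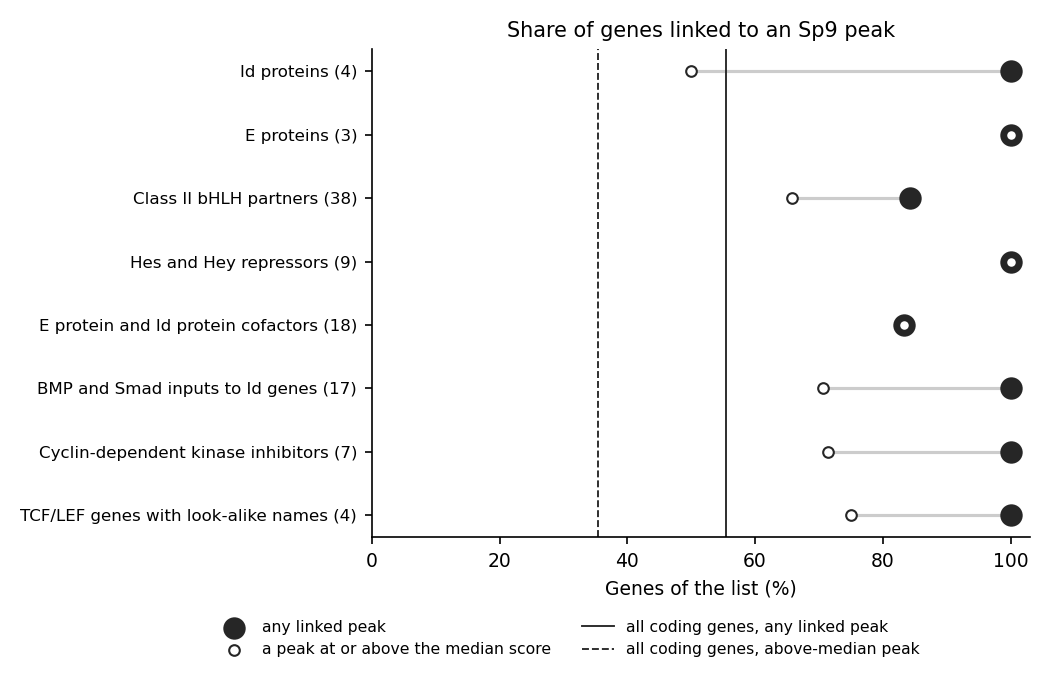
Share of the genes of each list (number of genes in brackets) with any linked peak (filled circles) and with a peak at or above the median score (open circles, drawn inside the filled ones where both shares are equal), in percent; the solid and dashed lines mark the shares of all coding genes, 55.4% and 35.4%. Id genes reach 100% with any peak and 50% with an above-median peak, and E protein genes reach 100% on each measure. The lists were chosen with earlier results of these data known.

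The symbols Tcf3 and Tcf4 have also been used for HMG-box factors of Wnt signalling, now Tcf7l1 and Tcf7l2, so the names were checked. All 15 member peaks lay on the chromosome of the RefSeq gene of the same symbol, and no peak carried a synonym of a member. Peaks of the look-alike genes stood under their own names on other chromosomes, with highest scores of 535.2 for Lef1 (3 peaks), 483.9 for Tcf7l1 (1 peak), 243.74 for Tcf7 (3 peaks) and 156.9 for Tcf7l2 (2 peaks). On the score, Tcf3 with 336.34 was below Tcf7l1, and Tcf4 with 226.99 was above Tcf7l2.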

How the data were processed

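What was available is the authors' 1 list of peaks shared by the Sp9 immunoprecipitations, with a chromosome, start, end, peak score and gene name per line. The deposited score has a single value for each peak and none for a library. Deposited positions are printed as given, and whether starts count from 0 or 1 is not stated. The submitters' processing notes name Bowtie2 2.2.4, MACS 1.4.2 and build mm9, without roles. How a peak counted as shared, how the score was computed and which annotation gave the names is not stated. The depth of the libraries, read as 150-base paired ends, is unknown, so no interval was given.

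Names were looked up in a RefSeq table (GRCm38.p6) by symbol, then by a synonym of only 1 gene; 13333 of 13383 names matched. Computation used Python 3.11.15, pandas 2.3.3 and numpy 2.4.6, and merging, ranking and matching were checked on simulated peaks. No test was run. Distances are gaps between peak edges. Named were all members, up to 3 neighbours each within 100 kb, the 4 highest genes of each list and all look-alike genes. Filip1, Kidins220 and names in the closing section were chosen after their values were seen. The members and lists were chosen with earlier results of these data known.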

Additional observations from a re-analysis of the deposited data

How the results depend on the processing

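Keeping only peaks at or above the median score left 5 of the 7 genes, 3 Id peaks (8 in the full list) and 5 E protein peaks (7 in the full list), and the median highest score per gene became 336.34 in place of 226.99. Id minus E protein peaks per gene was then -0.92, against -0.33 in the full list. Keeping peaks above the upper quartile left 2 genes, 1 Id and 3 E protein peaks, with a median highest score of 735.56, a difference of -0.75, and 49 linked genes of the 93 on the pathway lists in place of 84. Both changes follow from leaving out peaks. Synonyms and merging peaks less than 1 kb apart changed none of these member values, and merging below 5 kb gave a difference of -0.25. Counting peaks of any name within 50 kb gave 13 around Id genes and 14 around E protein genes, a median highest score of 259.46 and a difference of -1.42, since 7 of the added peaks belong to the surroundings of Tcf3. Summing the scores of a gene gave a median of 392.94. Merging and the 50 kb window cannot change which list genes are linked. With all 13383 names as background, 62.8% had an above-median peak. Leaving out a library and another rule for shared peaks could not be run without scores for each library. No paired analysis was possible because no library has values of its own here. Unknown depth limits any reading of a low score.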

Other observations

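The order of the genes depended on how a gene's score was taken. By summed score, Tcf12 (2309.99) and Id4 (785.77) stayed ahead, and Tcf4 (476.41) and Id3 (392.94) stood above Tcf3 (336.34), followed by Id2 (305.21) and Id1 (198.13). Tcf3 is the only member with 1 peak, so its sum equals its highest score.

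Of the 14 coding genes next to the 7 members in the RefSeq gene order, 10 had a linked peak, where 55.4% of all coding genes had one. The 4 without one were Cox4i2 beside Id1, Rnf144a beside Id2, Zfp169 beside Id4 and Ccdc68 beside Tcf4. Over all coding genes, a GC box was found in 57.3% of the promoter windows of linked genes and in 22.8% of those of genes without a linked peak. E-boxes went the other way, with 58.7% and 68.4% of the same windows. These shares do not allow for GC content, and whether a peak lies in any of these windows is not known. A GC box was in 6 of the 7 windows used, which came from 5 members.

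Among class II partners, the proneural gene Neurog2 had 6 peaks with a highest score of 534.39. Neurod1 had 2 peaks with a highest score of 132.1, and Neurog3, Neurod4, Nhlh1, Tal2, Myf5 and Myf6 had no linked peak. Within the BMP list, Bmp4 had 2 peaks with a highest score of 118.26 and the receptor gene Acvr1 had 1 of 84.12, the lowest values of that list.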
